A study of Bos taurus with 38 samples.

Results

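In bovine liver 4 genes were followed, CD3D (ENSBTAG00000006452), HCLS1 (ENSBTAG00000001009), CR2 (ENSBTAG00000038496) and LYZ (ENSBTAG00000026779), out of 24616 genes counted. They were taken by identifier as genes known from immune cells and described as CPM, the read pairs assigned to the gene scaled to a fixed total of read pairs on all genes of the library (counts per 1000000). Each was already on the list of Holstein genes that differed by residual feed intake in these same cows, so their difference between the feed intake groups of the Holsteins is not independent evidence.

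The biopsies came from 19 lactating Danish dairy cows, 9 Holstein and 10 Jersey, ranked for residual feed intake (RFI), the feed a cow eats above or below what is predicted from her production, where a high RFI means a low feed efficiency. The high-RFI groups held 4 Holsteins (cows 2, 7, 9 and 15) and 5 Jerseys (cows 3, 4, 12, 13 and 18), and the low-RFI groups 5 Holsteins (cows 1, 6, 11, 16 and 19) and 5 Jerseys (cows 5, 8, 10, 14 and 17). Cows were of parity 1 (7 cows), 2 (5 cows) or 3 (7 cows), and each ate a control low-concentrate diet (C) and a high-concentrate diet (HC) in a crossover of 2 periods with a biopsy after each, which gives 38 libraries. The cow is therefore the replicate for RFI, breed and parity, and the 2 libraries of a cow can be compared for diet and period. The main edgeR and DESeq2 fits for RFI and diet, and for RFI by breed or by diet, held no cow term. They count the 2 libraries of a cow as separate, and fits that take the cow into account are given beside them. The groups follow the labels, which give feed efficiency, low efficiency being taken as high-RFI; the table of cows in the published methods prints the opposite word for the RFI group, although its RFI values are mostly higher in the cows taken here as high-RFI. By those values low-RFI cow 1 ranked just above high-RFI cow 15, so the Holstein groups are not fully apart in RFI itself. All came from one research herd.

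The 4 genes are known from different leukocytes. CD3D encodes a chain of the CD3 complex that carries the signal of the T cell receptor, and HCLS1 encodes a cortical actin adaptor found in cells of the blood-forming lineage in general. CR2 encodes the complement receptor that B cells and follicular dendritic cells use to bind fragments of C3, and LYZ encodes lysozyme, a secreted enzyme that cleaves bacterial cell walls and is made by macrophages and neutrophils. The liver holds resident macrophages (Kupffer cells), T and NK cells and the leukocytes of its blood. In bulk tissue a lower level can come from fewer such cells or from less transcript per cell, and these cannot be told apart. Which cells made the transcripts in these biopsies, leukocytes or other cells of the liver, was not tested.

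Libraries held 17472750 to 24478289 read pairs on genes, with a median of 19814536. Genes with known roles in hepatocytes were expressed: HSD17B4, a peroxisomal oxidation enzyme, had 530 to 1072 CPM and CYP7A1, which starts bile acid synthesis from cholesterol, had 37.97 to 1042 CPM. CYP3A4, also looked at, had 85.4 to 156 CPM, rank 683 to 1215 of 24616 genes. The defining markers of the leukocyte types and of hepatocytes, such as PTPRC, CD3E and ALB, could not be paired with identifiers and were not analysed here. Some genes were near 0 in part of the cows and clearly expressed in the rest. Over these genes the libraries of Jersey cows 10 and 17 were most like each other and not like their own second library (the HC libraries of the 2 cows were alike at 40 of 40 such genes, and those of cow 10 at 30 of 40), and the HC library of cow 14 was alike with a C library of cow 5 at 34 genes and with its own at 33. Because of cows 10 and 17, results on Jerseys are also given without them. In Holsteins the HC library of high-RFI cow 15 was alike at 29 of 37 such genes with her own C library. It was alike at as many with the C and the HC library of low-RFI cow 19. The libraries of each other Holstein were alike at 35 to 37 of these genes.

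CD3D was the rarest of the 4 in reads. It had 36 to 154 read pairs per library (median 74), so that counting error alone gives a coefficient of variation of 11.6% at the median count. Its level ran from 1.74 to 8.37 CPM, and the coefficient of variation over the 38 libraries was 31.1%. HCLS1 had 303 to 696 read pairs and up to 29.5 CPM, 1.84 times its lowest level, with the smallest spread of the 4 (17.6%). CR2 had 641 to 2302 read pairs and 30.3 to 115 CPM, a spread of 35.9%. LYZ had 179 to 935 read pairs and 9.56 to 49.3 CPM, with a spread of 48.5%. Bovine lysozymes are a multigene family, and RefSeq (ARS-UCD2.0) places 6 lysozyme-named genes among 11 neighbouring protein-coding genes around LYZ, so reads may be split between near-identical copies and the LYZ count is uncertain. These levels are not per length and are not compared between genes.

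**Figure D1:**
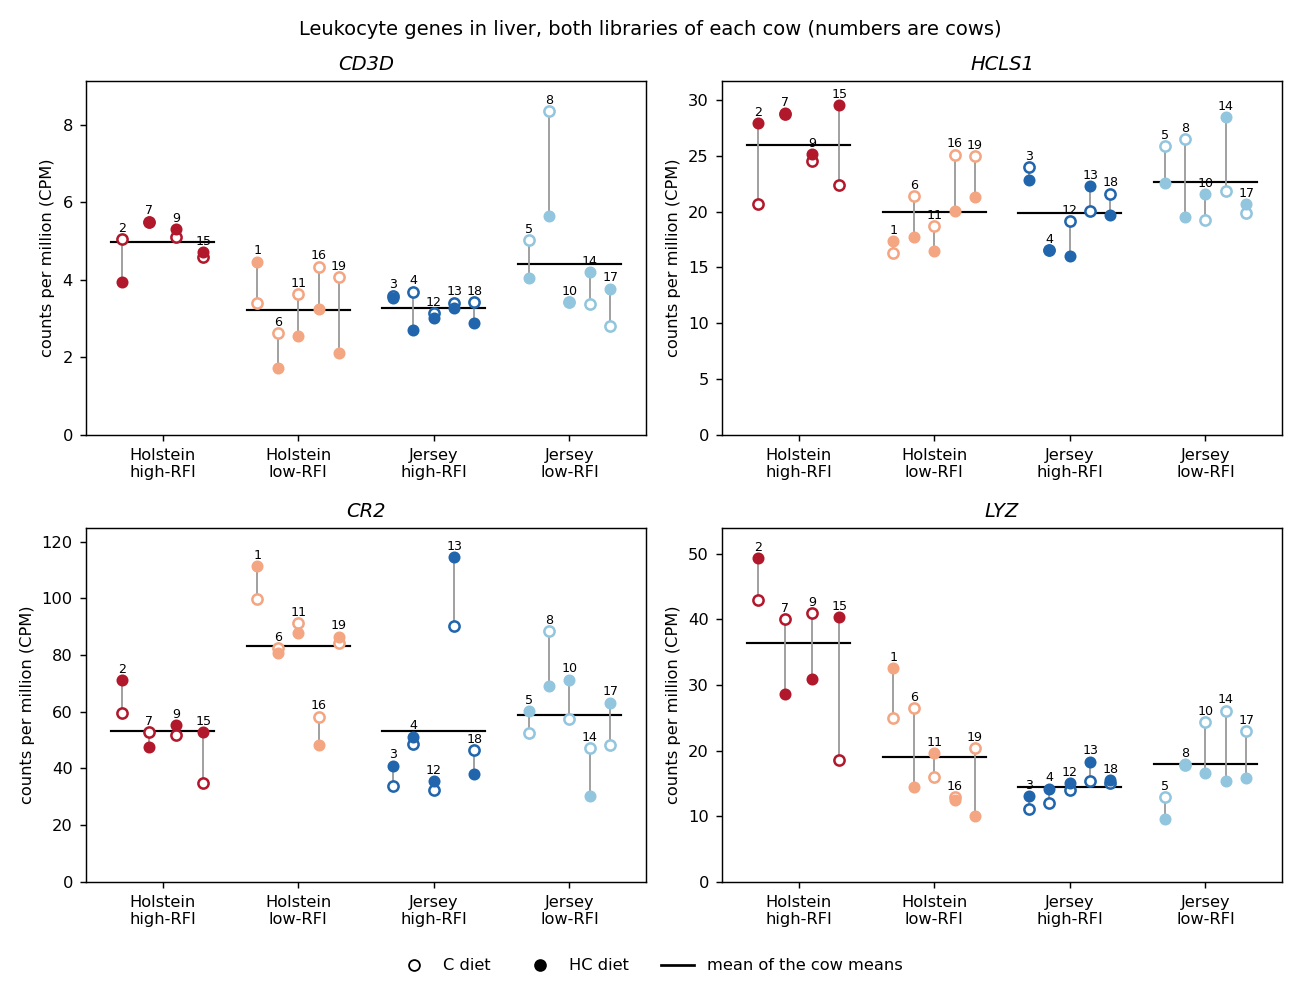
CPM (y axis, from 0) of CD3D, HCLS1, CR2 and LYZ in the C library (open point) and the HC library (filled point) of each cow, joined by a line and labelled with the cow's number, in the 4 groups of breed and RFI; the black bar is the mean of the cow means. The means of the 2 libraries are higher in each high-RFI than in each low-RFI Holstein for CD3D, HCLS1 and LYZ, while single libraries overlap, and the Jersey groups overlap for all 4 genes.

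The first question was whether the genes differed with RFI in Holsteins. As the mean of her 2 libraries, CD3D was at 4.50, 5.50, 5.22 and 4.65 CPM in high-RFI cows 2, 7, 9 and 15. It was at 3.93, 2.18, 3.099, 3.79 and 3.09 CPM in low-RFI cows 1, 6, 11, 16 and 19. The 2 groups did not overlap, with means of 4.97 ± 0.471 (SD, n = 4) and 3.22 ± 0.698 (SD, n = 5). The fitted log2 difference, high-RFI minus low-RFI, was 0.59 ± 0.161 (SE), and edgeR gave an adjusted p of 0.282.

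HCLS1 was at 24.3, 28.8, 24.8 and 25.9 CPM in the high-RFI Holsteins and at 16.9, 19.6, 17.6, 22.6 and 23.2 CPM in the low-RFI Holsteins, in the same order of cows. These groups did not overlap either, although low-RFI cow 19 and high-RFI cow 2 were 1.15 CPM apart. The log2 difference was 0.39 ± 0.095 (SE), with an adjusted p of 0.218 (edgeR).

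CR2 went the other way. It was at 65.5, 50.1, 53.6 and 43.9 CPM in the high-RFI Holsteins and at 106, 81.6, 89.6, 53.2 and 85.4 CPM in the low-RFI Holsteins. Cow 16 was the one low-RFI cow within the range of the high-RFI cows. CR2 fell by 0.67 ± 0.106 (SE) on the log2 scale in high-RFI cows, with an adjusted p of 0.0141 (edgeR).

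LYZ was at 46.1, 34.3, 35.9 and 29.5 CPM in the high-RFI Holsteins and at 28.8, 20.5, 17.8, 12.7 and 15.2 CPM in the low-RFI Holsteins. The cow means did not overlap on the CPM scale, with 0.703 CPM between high-RFI cow 15 and low-RFI cow 1, but as means of log2 CPM these 2 cows overlapped. LYZ rose by 0.98 ± 0.163 (SE) on the log2 scale, with an adjusted p of 0.0232 (edgeR).

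Thus 2 of the 4 genes passed the test in Holsteins, in opposite directions, where 0.0665% of the 12025 genes tested did (8 genes, 1 higher and 7 lower in high-RFI cows). The cow means of 3 genes did not overlap between the groups on the CPM scale, against 1.7% of the genes tested. Since the genes were listed for this contrast, nothing is read from these counts. Both calls were lost without some single cows: the adjusted p of CR2 (edgeR) was 0.0748, 0.065, 0.159 and 0.0692 without cows 2, 7, 11 and 15, and that of LYZ was 0.192, 0.065, 0.0617, 0.146 and 0.0941 without cows 2, 7, 9, 11 and 16. With the cow as a replicate block (limma-voom), CR2 kept an adjusted p of 0.0342 and LYZ had 0.110. With the libraries of each cow summed it was 0.883 for CR2 and 0.0674 for LYZ (edgeR). DESeq2 called 3 of the 4, CR2, LYZ and HCLS1 (adjusted p of 0.0291), and left CD3D at 0.0502.

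By exact permutation of whole cows (two-sided, mean log2 CPM, smallest possible p of 0.00794), p was 0.0159 for CD3D, 0.0238 for HCLS1, 0.0397 for CR2 and 0.0238 for LYZ. Cows had been selected in blocks of 1 high-RFI and 1 low-RFI cow, of which 4 were complete in Holsteins. In 4 of 4 blocks the high-RFI cow had more CD3D, more HCLS1 and more LYZ and less CR2. The genes were listed for this contrast in these cows, so neither these p values nor the blocks are independent evidence. The share of all genes alike in direction over the blocks was not counted. Cows 15 and 16 were the closest for CD3D (4.65 against 3.79 CPM) and HCLS1 (25.9 against 22.6 CPM), and for LYZ cows 7 and 1 (34.3 against 28.8 CPM).

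In Jerseys, which were not the ground for listing the 4 genes, no gene passed the test for RFI. CD3D was at 3.57, 3.21, 3.09, 3.35 and 3.16 CPM in high-RFI cows 3, 4, 12, 13 and 18. It was at 4.54, 7.01, 3.44, 3.80 and 3.30 CPM in low-RFI cows 5, 8, 10, 14 and 17. The high-RFI cows lay close together (SD 0.192) at the lower end of the range of the low-RFI cows (SD 1.53), and the 2 groups overlapped. The log2 difference was -0.38 ± 0.127 (SE), opposite in sign to that of the Holsteins. EdgeR gave it an adjusted p of 0.676, and the exact permutation p was 0.0476 (0.0635 on TMM-normalized values).

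HCLS1 was at 23.4, 16.6, 17.6, 21.2 and 20.6 CPM in the high-RFI Jerseys and at 24.2, 23.0, 20.4, 25.1 and 20.3 CPM in the low-RFI Jerseys. The groups overlapped, with a log2 difference of -0.17 ± 0.092 (SE) and an adjusted p of 0.927 (edgeR). LYZ was at 12.1, 13.1, 14.5, 16.8 and 15.3 CPM in the high-RFI Jerseys and at 11.2, 17.9, 20.5, 20.7 and 19.4 CPM in the low-RFI Jerseys. Low-RFI cow 5 had the least LYZ of all the Jerseys, and the other low-RFI cows had the most. The log2 difference was -0.28 ± 0.121 (SE), with an adjusted p of 0.794 (edgeR).

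CR2 was at 37.4, 49.9, 34.01, 102 and 42.3 CPM in the high-RFI Jerseys and at 56.4, 78.8, 64.4, 38.7 and 55.7 CPM in the low-RFI Jerseys. Cow 13 had the most CR2 of all the Jerseys in a group that was otherwise low. The log2 difference was -0.19 ± 0.234 (SE), with an adjusted p of 0.991 (edgeR), and the fits that left out 1 cow ranged from -0.53 to 0.0084. None of the 4 genes was called in Jerseys by edgeR, by DESeq2 or with the cow as a replicate block. In edgeR 2 of the 4 (CD3D and LYZ) had an unadjusted p under 0.05, as did 703 of all genes tested. Of the 11905 genes tested 0.0336% were called (4 genes), and the cow means of 0.538% did not overlap between the groups, against none of the 4. Without cows 10 and 17 the log2 difference of CD3D was -0.51 and that of LYZ -0.23, with adjusted p of 0.501 and 0.810 (edgeR). Without cow 8 that of CD3D was -0.23, and without cow 4 that of HCLS1 was -0.083. In the 5 selection blocks of the Jerseys the high-RFI cow was the higher one in 1 for CD3D, 1 for HCLS1, 1 for LYZ and 2 for CR2.

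The RFI effect was then compared between breeds in one fit over the 38 libraries. The effect of Jersey minus that of Holstein was -1.05 ± 0.217 (SE) on the log2 scale for CD3D, -0.58 ± 0.138 for HCLS1, 0.49 ± 0.286 for CR2 and -1.24 ± 0.258 for LYZ. The adjusted p values in edgeR were 0.0504, 0.101, 0.763 and 0.0507, so none of the 4 was called, where 0.0338% of 11827 genes were (4 genes). By unadjusted p, CD3D ranked 6 and LYZ 7 among these genes. An unadjusted p under 0.05 was found for 3 of the 4 and for 885 of the 11827 genes. DESeq2 called CD3D, HCLS1 and LYZ, with adjusted p of 0.00291, 0.0218 and 0.00291. With the cow as a replicate block (limma-voom) none was called, with adjusted p of 0.113 for CD3D, 0.153 for HCLS1 and 0.130 for LYZ.

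As a test of single values, added after the data had been seen, the RFI labels of the cows were permuted within both breeds over all 31752 arrangements. The exact p was 0.000598 for CD3D, 0.00375 for HCLS1, 0.00391 for LYZ and 0.367 for CR2. The Holstein side of this difference is the contrast for which the genes were listed. The plot of fitted changes sets these values beside those of the other comparisons.

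**Figure D2:**
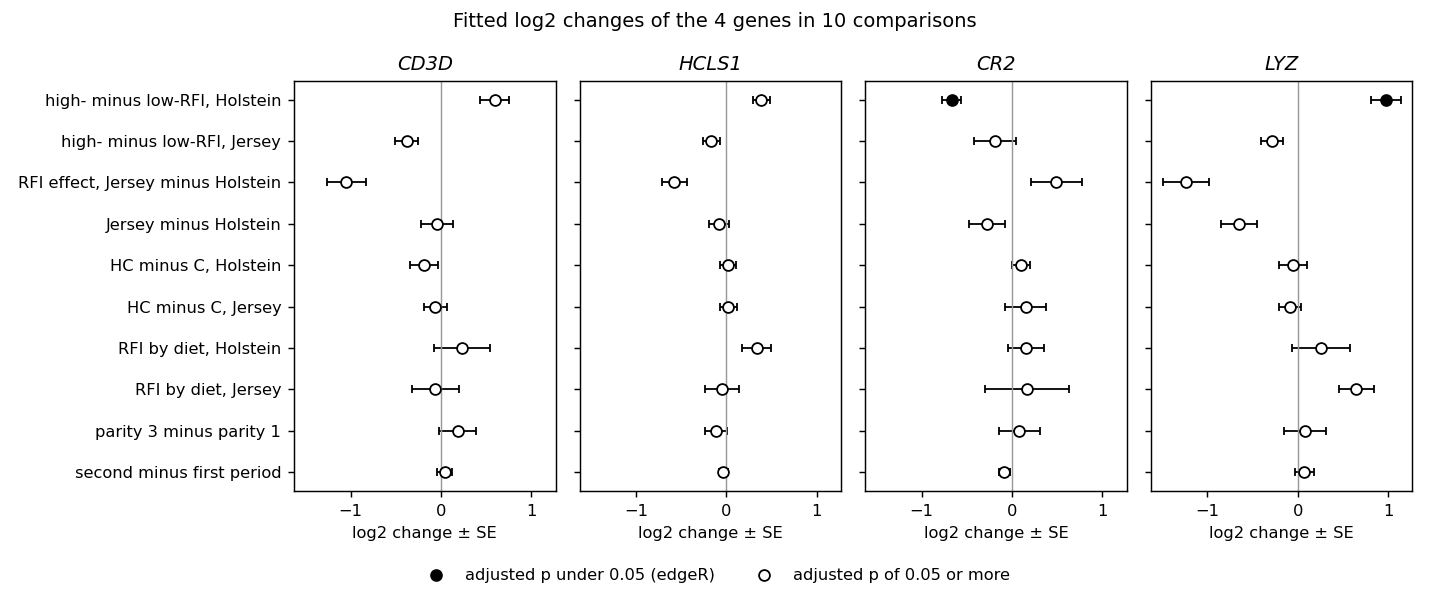
Fitted log2 changes with standard errors (x axis) of CD3D, HCLS1, CR2 and LYZ in 10 comparisons (y axis); filled points passed an adjusted p of 0.05 in edgeR. The filled points are CR2 at -0.67 and LYZ at 0.98 for high- minus low-RFI in Holsteins, and the points for diet, parity and period lie within 0.19 of 0.

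Breed was tested on the 19 cows with the libraries of each cow summed. LYZ had 26.7 ± 11.1 CPM in Holsteins (SD, n = 9) and 16.2 ± 3.44 CPM in Jerseys (SD, n = 10). The gap lay mainly in the high-RFI cows, where the Holsteins ran from 29.5 to 46.1 CPM and the Jerseys from 12.1 to 16.8 CPM. Among low-RFI cows the means were 18.98 ± 6.19 and 17.9 ± 3.91 CPM (SD, n = 5 each). The log2 difference, Jersey minus Holstein, was -0.65 ± 0.203 (SE), and edgeR gave an adjusted p of 0.086. DESeq2 and the fit with the cow as a replicate block (limma-voom) called it, at 0.0217 and 0.0177.

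CR2 had 69.8 ± 21.4 CPM in Holsteins and 56.0 ± 21.3 CPM in Jerseys, a log2 difference of -0.28 ± 0.199 (SE) with an adjusted p of 0.473 (edgeR). CD3D had 3.997 ± 1.08 and 3.84 ± 1.19 CPM, and HCLS1 had 22.6 ± 3.95 and 21.2 ± 2.78 CPM, in Holsteins and Jerseys. Their log2 differences were -0.04 ± 0.179 and -0.08 ± 0.107 (SE), so neither differed beyond the spread between cows. With edgeR, none of the 4 was called, where 3.14% of the genes tested were called by breed (371 genes). An unadjusted p under 0.05 was found for 1 of the 4 and for 2290 of the 11827 genes tested.

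Diet was compared within cows by counts of cows, by sign-flip permutation and by the fit with the cow as a replicate block, but not in the main fit. CD3D had 4.26 ± 0.923 CPM on C and 3.74 ± 1.39 CPM on HC in Holsteins, and 4.03 ± 1.63 and 3.66 ± 0.851 CPM in Jerseys (SD over cows). It was higher on HC in 4 of 9 Holsteins and in 2 of 10 Jerseys, and the exact sign-flip permutation p was 0.117 and 0.334. HCLS1 was the steadiest: it had 22.5 ± 3.76 CPM on C and 22.7 ± 5.22 CPM on HC in Holsteins, and 21.5 ± 3.16 and 21.0 ± 3.53 CPM in Jerseys.

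CR2 had 68.4 ± 21.7 CPM on C and 71.3 ± 22.1 CPM on HC in Holsteins, and 54.6 ± 19.8 and 57.5 ± 24.8 CPM in Jerseys. LYZ had 27.0 ± 11.5 and 26.5 ± 13.4 CPM in Holsteins, and 17.2 ± 5.42 and 15.1 ± 2.52 CPM in Jerseys, on C and HC. The main fits had parity and RFI beside diet and did not pair the libraries of a cow. Their log2 changes, HC minus C, ran from -0.19 (CD3D) to 0.10 (CR2) in Holsteins and from -0.08 (LYZ) to 0.15 (CR2) in Jerseys. In edgeR, 0 of the 4 genes were called in either breed and 0 had an unadjusted p under 0.05; DESeq2 called 0 as well. Among all genes 0.782% were called by diet in Holsteins (94 genes) and 0.37% in Jerseys (44 genes). With the cow as a replicate block the counts of genes rose to 345 and 71, and the 4 genes stayed uncalled, with adjusted p from 0.478 to 0.938.

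The interaction of RFI with diet asked whether the RFI groups responded differently to the diets. LYZ in Jerseys had the lowest p of the 4 genes. It was higher on HC in 5 of 5 high-RFI Jerseys, as from 11.2 to 13.1 CPM in cow 3 and from 15.4 to 18.3 CPM in cow 13. It was lower on HC in 4 of 5 low-RFI Jerseys, as from 26.1 to 15.3 CPM in cow 14, and near level in cow 8 (17.8 and 17.9 CPM). The interaction was 0.65 ± 0.194 (SE) on the log2 scale, with an unadjusted p of 0.00375 and an adjusted p of 0.999 (edgeR), and 0.56 without cows 10 and 17.

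HCLS1 in Holsteins had an interaction of 0.33 ± 0.163 (SE). It was higher on HC in 4 of 4 high-RFI Holsteins, at 20.7 and 27.9 CPM in cow 2 and at 22.4 and 29.5 CPM in cow 15 on C and HC, but cow 7 (28.7 and 28.8 CPM) and cow 9 (24.5 and 25.1 CPM) were nearly level. It was lower on HC in 4 of 5 low-RFI Holsteins. Its adjusted p was 1.00 (edgeR). No gene of the whole table passed the test in either breed with edgeR (0% of the genes, with 206 in Holsteins and 443 in Jerseys at an unadjusted p under 0.05), and DESeq2 called 0 in Holsteins and 2 in Jerseys.

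Parity was compared as parity 3 minus parity 1 on the 19 cows. CD3D had 4.13 ± 1.505 CPM in cows of parity 3 and 3.59 ± 0.546 CPM in cows of parity 1 (SD, n = 7 each), and HCLS1 had 21.1 ± 3.41 and 22.7 ± 2.20 CPM. CR2 had 67.9 ± 22.8 and 60.2 ± 24.3 CPM, and LYZ had 21.4 ± 12.5 and 18.5 ± 5.53 CPM. The fitted log2 differences lay between -0.12 (HCLS1) and 0.19 (CD3D), and edgeR called none of the 4, with none at an unadjusted p under 0.05, against 0.33% of all genes (39 genes); DESeq2 called none of the 4 either.

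LYZ ran in opposite directions with parity in the 2 breeds. In Holsteins of parity 3 and parity 1 it had 31.8 ± 13.1 and 19.1 ± 9.05 CPM (SD, n = 3 each), and in Jerseys 13.6 ± 2.95 and 18.1 ± 2.45 CPM (SD, n = 4 each). The fitted values were 0.73 and -0.40 on the log2 scale, neither of them called, with adjusted p of 0.267 and 0.374 (edgeR), and the difference between breeds was not tested. For parity 2 minus parity 1, 0% of all genes were called by edgeR (799 at an unadjusted p under 0.05), and the 4 genes lay between -0.12 (CR2) and 0.18 (LYZ).

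Period was compared within cows as the second minus the first. The log2 changes were 0.04 ± 0.083 (SE) for CD3D, -0.04 ± 0.050 for HCLS1, -0.09 ± 0.060 for CR2 and 0.07 ± 0.108 for LYZ. CD3D was higher in the second period in 3 of 9 Holsteins and 7 of 10 Jerseys, and LYZ in 7 of 9 and 5 of 10. None of the 4 genes was called and none had an unadjusted p under 0.05 in edgeR, where 0% of all genes were called (626 at an unadjusted p under 0.05); DESeq2 called 2 genes, neither of them among the 4.

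How alike the 2 libraries of a cow were for each gene was described by the correlation of her C with her HC library. It was taken over the 19 cows with breed means removed, and RFI was not removed. CR2 was the most repeatable, with Pearson's r of 0.82 (permutation p of 5.0e-05) and Spearman's rho of 0.86 (p of 3.0e-05). It ranked 133 of 11827 genes by this r, and the median of all genes was 0.13. Without the 2 cows farthest from the median, cows 8 and 13, r was 0.77. CR2 held at 0.86 in Holsteins and at 0.80 in Jerseys alone. The genes followed were listed for their RFI difference in these same Holsteins, over both diets. That difference is part of r over the 19 cows and in Holsteins, so the rank among all genes and the p values are a description. How much of r remains with RFI removed was not tested.

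CD3D had an r of 0.66 (permutation p of 0.00115), but the value in Jerseys rested on cows 5 and 8: it was 0.73 with them and -0.37 without them. HCLS1 and LYZ each had an r of 0.53 (permutation p of 0.0298 and 0.0496), which came to 0.36 and 0.31 without the 2 farthest cows. Without cows 10 and 17 r was 0.84 for CR2, 0.71 for CD3D, 0.55 for HCLS1 (permutation p of 0.0299) and 0.54 for LYZ (permutation p of 0.0650). In Holsteins and Jerseys alone r was 0.58 and 0.45 for HCLS1 and 0.58 and 0.47 for LYZ. Their permutation p values within breeds ran from 0.103 to 0.190. The p values of these correlations are not adjusted, and the RFI difference of the Holsteins is part of the values that include them. The SD between cow means on the log2 scale was 0.48 for CR2 and 0.21 within cows, and 0.23 and 0.17 for HCLS1.

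It was then asked whether the 4 genes move together over cows, as genes set by one leukocyte content would. CD3D and HCLS1 had the highest r of the 6 pairs. Over the 19 cow means with breed means removed, their Pearson's r was 0.60 (permutation p of 0.0105, adjusted over 6 pairs 0.0629) and Spearman's rho was 0.67 (p of 0.00301, adjusted 0.0181). It was 0.66 without cows 6 and 8, 0.64 in Holsteins alone and 0.53 in Jerseys alone. With the group means of breed and RFI and with parity removed it came to 0.29 (permutation p of 0.233).

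LYZ went with CD3D at an r of 0.46 (permutation p of 0.0689, adjusted 0.207) and a rho of 0.53 (p of 0.0408, adjusted 0.122), and with HCLS1 at 0.27 (p of 0.318, adjusted 0.477). In Holsteins alone the r of LYZ with CD3D was 0.66 and in Jerseys alone 0.05. With RFI and parity removed, the r of LYZ with CD3D was -0.16 and that with HCLS1 was -0.49 (permutation p of 0.0368, adjusted 0.188).

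CR2 did not go with the other genes over cows. Its r was -0.12 with CD3D, -0.38 with HCLS1 and -0.05 with LYZ (permutation p of 0.616, 0.111 and 0.83). In the 9 Holsteins alone its r with HCLS1 was -0.85 (exact permutation p of 0.00382, adjusted over 6 pairs 0.0229), and -0.69 without cows 1 and 11. Both genes were listed for their RFI difference in these same Holsteins, in opposite directions, so part of this r is that difference. Over the 19 cows with RFI and parity removed, the r of HCLS1 with CR2 was -0.22 (permutation p of 0.41). In the Jerseys that pair had an r of 0.10 (permutation p of 0.792). No pair had an adjusted p under 0.05 by Pearson's r over the 19 cows, and 1 of the 6 (CD3D with HCLS1) had an unadjusted p under 0.05.

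**Figure D3:**
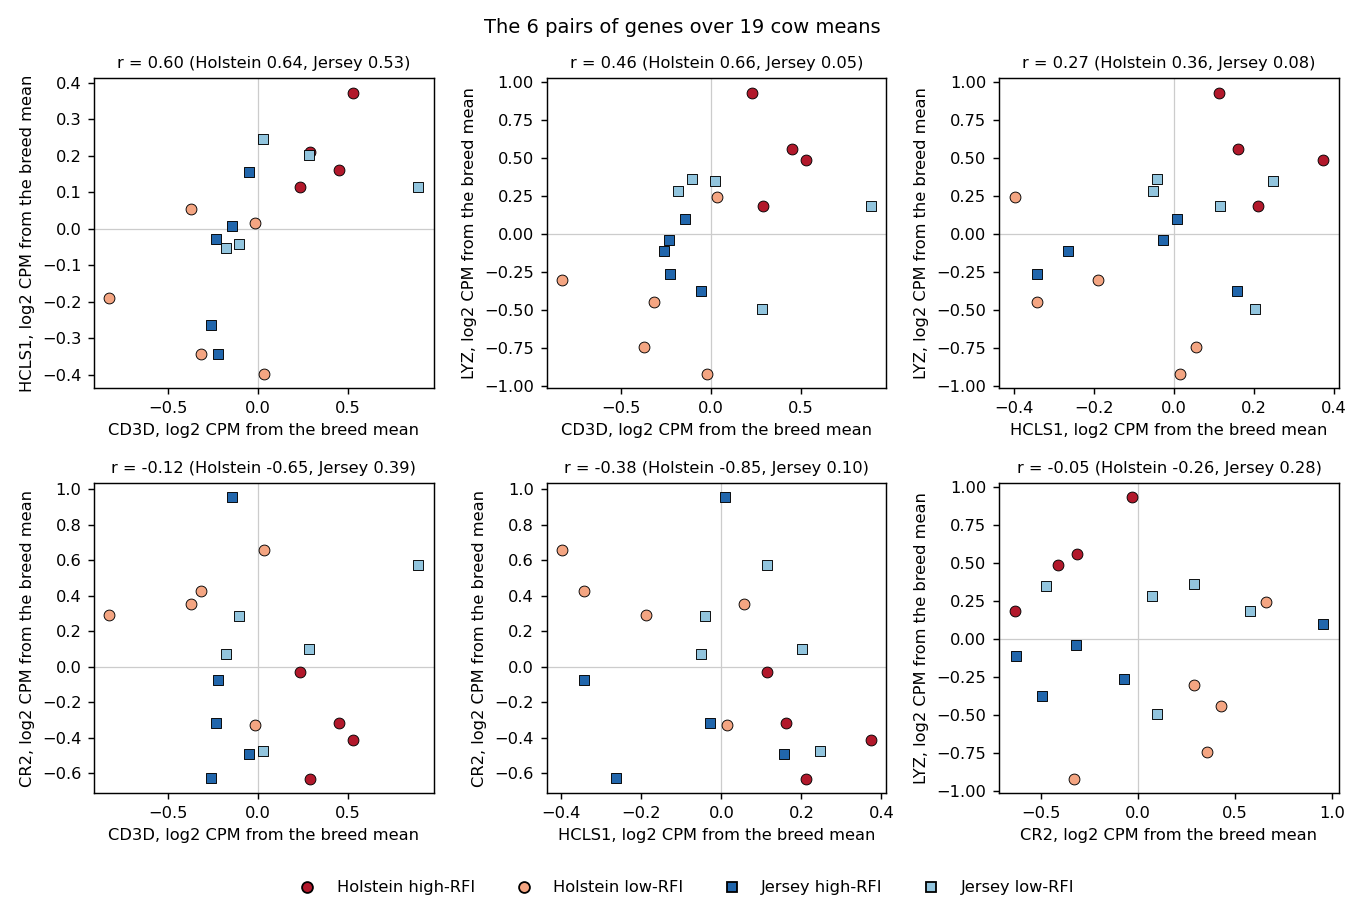
The 6 pairs of genes over the 19 cow means, as log2 CPM from the mean of the breed on both axes; circles are Holsteins, squares Jerseys, dark symbols high-RFI and light symbols low-RFI cows, and the titles give Pearson's r over all cows and in each breed. CD3D and HCLS1 rise together in both breeds (r = 0.60), whereas HCLS1 and CR2 run opposite in Holsteins (-0.85) and not in Jerseys (0.10). The genes were listed for their RFI difference in these Holsteins, which is part of the Holstein values.

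The genes were then compared within cows. The difference of the HC minus the C library was taken for each gene and the breed mean removed, which takes out the level of the cow but not a response to diet that differs between the RFI groups. CD3D and HCLS1 again moved together, with r of 0.60 (permutation p of 0.00977, adjusted over 6 pairs 0.0586) and rho of 0.68 (p of 0.00294); without the 2 farthest cows r was 0.62. With the group means of breed and RFI and with parity removed as well, a setting added after the data had been seen, r was 0.54 (permutation p of 0.0135, adjusted 0.0812) and rho 0.43 (p of 0.0799), and r was 0.41 without the 2 farthest cows. The other pairs had r of 0.39 (CR2 with LYZ), 0.35 (HCLS1 with CR2), 0.25 (HCLS1 with LYZ), 0.23 (CD3D with CR2) and 0.18 (CD3D with LYZ), with permutation p from 0.0804 to 0.507. By rank, HCLS1 with CR2 had a rho of 0.52 (p of 0.0253, adjusted 0.0759). Without the 2 farthest cows CR2 with LYZ came to 0.03 and CD3D with LYZ to -0.15. With all 19 cows the 6 values of r were above 0, while 3 of the 6 pairs were below 0 over cow means. Both differences of a point come from the same pair of libraries.

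**Figure D4:**
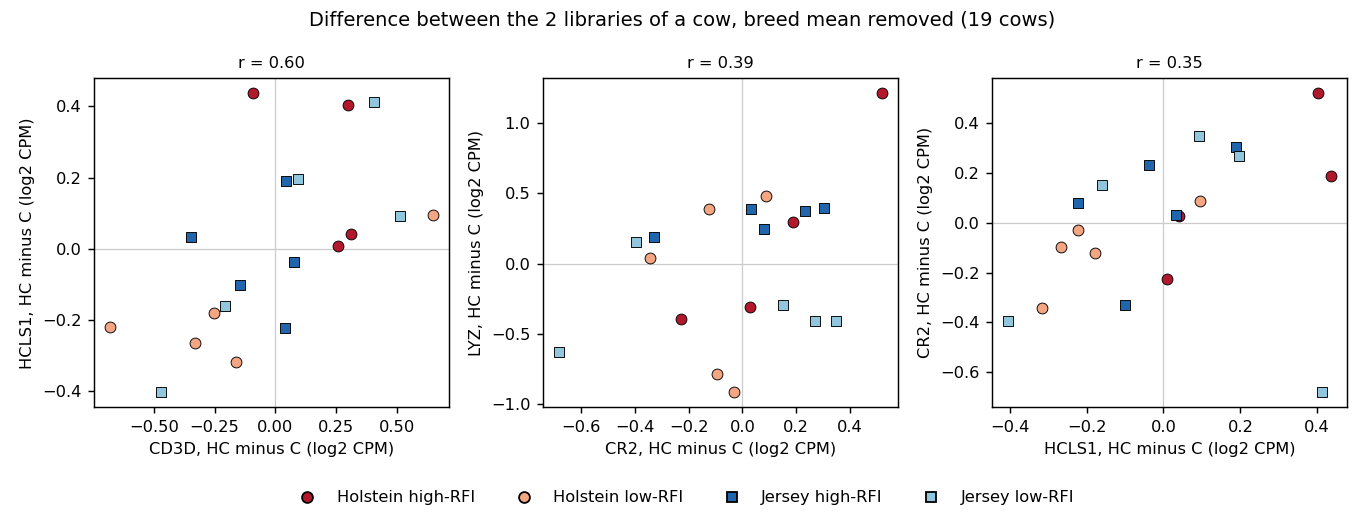
HC minus C difference in log2 CPM, with the breed mean removed, for 3 pairs of genes over 19 cows; symbols as for the plot of pairs over cow means, and the titles give Pearson's r. CD3D and HCLS1 change together between the 2 biopsies of a cow (0.60), and the cloud of CR2 with LYZ (0.39) has high-RFI Holstein cow 15 far to the upper right.

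The genes most like each of the 4 were sought among 74 genes whose symbol could be paired with an identifier and that passed the filter in both breeds. These symbols come from the lists of genes that differed by RFI in these cows, so part of any likeness is the RFI difference that put them there. The measure was Pearson's r over the 19 cow means with breed means removed, and it is given as a description.

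HCLS1 was most like NKG7, a granule protein of NK and cytotoxic T cells, with r of 0.79, rank 15 of 11826 genes. The likeness held with RFI and parity removed (0.75) and within cows between diets (0.64). SLA, an adaptor that dampens T and B cell receptor signalling, came next at 0.75 (rank 29), and held 0.56 and 0.52 in the same settings. ABR (0.65), CCDC109B (0.65) and CD3D (0.60) completed the 5.

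CD3D was most like HSD17B4 (0.64), the peroxisomal oxidation enzyme, and then HCLS1 (0.60), CCDC109B (0.55), the interferon-induced gene IFI6 (0.53) and SLA (0.52). Within cows the r was -0.06 with HSD17B4, 0.54 with SLA and 0.60 with HCLS1. With RFI and parity removed HSD17B4 had the highest r of these at 0.61, with 0.29 for HCLS1 and 0.01 for SLA. HSD17B4 ranked 82 among all genes and HCLS1 132.

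LYZ was most like RYR1, the calcium release channel of skeletal muscle, with r of 0.86, rank 1 of 11826 genes. It was 0.94 in Holsteins and 0.54 in Jerseys, 0.70 with RFI and parity removed and 0.43 within cows. CCDC64 (0.74, rank 9), CYP11A1 (0.68), which starts steroid hormone synthesis, ARHGEF37 (0.64) and ACACA (0.62), which makes malonyl-CoA for fatty acid synthesis, followed.

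CR2 was most like FGFR2, a growth factor receptor (0.60, rank 39), and SELP, an adhesion molecule of platelets and endothelium (0.54). SELP with CR2 was 0.88 in Holsteins and 0.35 in Jerseys, and held at 0.55 with RFI and parity removed. SLC20A1 (0.54), TAF6 (0.46) and SEMA4G (0.42) were the others.

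**Figure D5:**
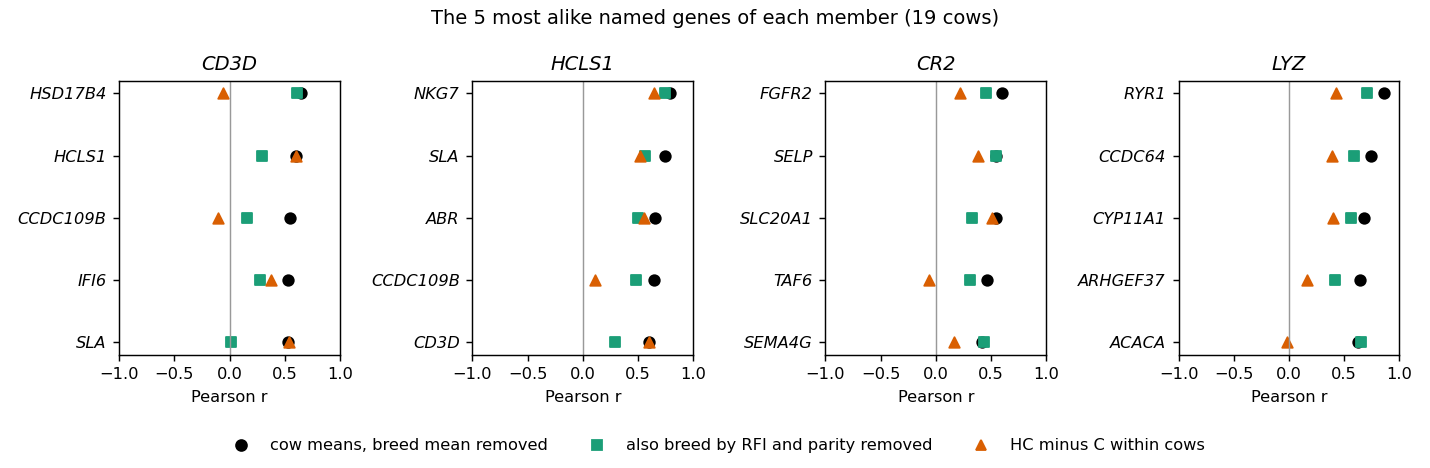
Pearson's r (x axis, from -1 to 1) of each of the 4 genes with its 5 most alike genes among those with a symbol, over 19 cows: black points for cow means with breed means removed, green squares with breed by RFI and parity removed, orange triangles for the HC minus C difference. NKG7 and SLA stay above 0.5 with HCLS1 in all 3, whereas HSD17B4 with CD3D (-0.06) and ACACA with LYZ (-0.02) fall to about 0 within cows and SLA with CD3D (0.01) does so with RFI and parity removed.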

How the data were processed

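Liver biopsies of 19 cows on 2 diets gave 38 libraries (TruSeq Stranded mRNA, paired-end). The deposited values are counts of read pairs per Ensembl gene, made by the authors with cutadapt, STAR 2.3.0 on UMD3.1 (at most 5 mismatches), Ensembl release 82 and HTSeq-count. The strand setting of the counting is not given in the sources used here. Summary rows were left out of library sizes, so that 76.2% ± 1.01 of the counted read pairs (SD, n = 38) fell on genes, at 17472750 to 24478289 per library.

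CPM were computed on the gene total, and log2 values after adding 0.5 to the count. The main tests were edgeR 4.0.16 quasi-likelihood fits with TMM factors (R 4.3.3) on genes that reached 1 CPM in 8 or more of the Holstein libraries, or 10 or more of the Jersey libraries, with parity and diet beside RFI in each breed, breed by RFI over all libraries, counts summed per cow for breed and parity, and the cow and diet beside period. All 4 genes passed these filters. P values were adjusted over all genes tested (Benjamini-Hochberg). DESeq2 1.42.0 (its adjusted p left NA where it gave none), limma 3.58.1 with the cow as a block, other filters and normalizations, and leaving out each cow were alternatives. Single values were tested by exact permutation over cows, and correlations by 100000 permutations within breed (exact for Holsteins alone). On simulated counts for RFI in Holsteins, with 200 of 12025 genes changed by 1.5 on the log2 scale, edgeR recovered 197 and also called 14 unchanged genes. The simulated libraries were drawn independently, without a cow effect. The change was larger than any fitted for the 4 genes by RFI, so the recovery of changes of their size was not tested.

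Libraries of one number were taken as the same cow, as the labels and the crossover give it. At the genes near 0 in part of the cows, the libraries of cows 10 and 17 were most like each other. The HC libraries of cows 14 and 15 were at least as like another cow's as their own. Whether these labels are right was not tested. The correlation within cows over all genes was 0.19 in Holsteins and 0.08 in Jerseys. No 2 libraries agreed within sampling noise (lowest chi-square per degree of freedom 12.3). P values of the summed fits, of the fits with the cow as a block or term and of the permutations of cows take the cow into account. Those of the main edgeR and DESeq2 fits for RFI and diet, and for RFI by breed or by diet, do not. They treat the 2 libraries of a cow as independent, so they do not measure the spread between cows. The first diet, selection block and RFI rank of each cow were taken from the study's methods, and the groups from the labels.

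The 4 genes, the lists and the tests were chosen with earlier results of these data known. The named genes are the 4 in every comparison and, for each, the 5 most alike among genes with a symbol. Symbols came only from the study's lists, which pair 77 identifiers. Of the 199 distinct genes of the cell type and pathway lists, 1 (NKG7) could be paired, below the 80% set as a minimum, so these lists were not tested and sequences are not shown.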

Additional observations from a re-analysis of the deposited data

Results flagged for a closer look

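Within the 32 groups of 4 or 5 libraries (4 genes, breed, RFI and diet), 5 libraries stood apart from the rest of their group by Dixon's gap criterion, which chance meets in about 1 of 20 groups. CR2 was at 90.2 CPM on C and 115 CPM on HC in high-RFI Jersey cow 13, where the other cows had 32.6 to 48.7 and 35.4 to 51.2 CPM. CR2 was at 88.4 CPM in the C library of low-RFI Jersey cow 8, where the others had 47.1 to 57.5 CPM, and at 30.3 CPM in the HC library of low-RFI cow 14, where the others had 60.2 to 71.3 CPM. LYZ was at 18.6 CPM in the C library of high-RFI Holstein cow 15, where the others had 40.1 to 42.9 CPM, and at 40.3 CPM in her HC library.

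The high-RFI minus low-RFI difference in mean log2 CPM differed between breeds by the exact permutation test for 3 genes. Jersey minus Holstein, it was -1.04 for CD3D (p of 0.000598), -0.57 for HCLS1 (p of 0.00375) and -1.25 for LYZ (p of 0.00391), with 0.67, 0.39 and 0.98 in Holsteins and -0.37, -0.19 and -0.27 in Jerseys. The Holstein side is the contrast for which the genes were listed, so these p values are not independent evidence of a difference between breeds. In Jerseys alone the exact permutation p for RFI was 0.0476 for CD3D, 0.151 for HCLS1 and 0.159 for LYZ. The test between breeds was chosen after the data had been seen, and in the fit over all genes in edgeR none of the 3 had an adjusted p under 0.05. Without cows 10 and 17 the exact p was 0.000142, 0.00198 and 0.0129.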

How the results depend on the processing

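In RFI in Holsteins, 2 of the 4 genes were called by edgeR. The count was 3 with DESeq2 (HCLS1 added), 1 with the cow as a replicate block (CR2) and with the selection block in place of parity (CR2), 0 with the libraries of each cow summed, with no parity term and with the RFI rank in place of the group, and 0 to 2 when each cow was left out in turn. The genes called among all genes were 8 in the main fit, 5 with the replicate block, 0 summed, 29 with the selection block, 3 by rank, 16 with no filter and 61 with DESeq2. In the comparison of the RFI effect between breeds the number of the 4 genes called went from 0 to 2 with DESeq2 size factors, to 2 with no filter, to 3 with DESeq2, to 2 without cows 10 and 17 (CD3D and HCLS1), and to between 0 and 3 without single cows; among all genes it went from 4 to 7, 8, 36 and 23, and to 0 with the replicate block or summed libraries. For breed it went from 0 to 1 (LYZ) with DESeq2 and with the replicate block, and the 371 genes called became 792, 801 and, without cows 10 and 17, 52. For parity the 39 genes called became 231 with DESeq2, 162 with the replicate block, 1 in Holsteins alone and 0 in Jerseys alone. For diet the 94 and 44 genes became 343 and 196 with DESeq2, 48 and 0 with no parity term, and, in Jerseys without cows 10 and 17, 7 (23 with the replicate block). RFI in Jerseys went from 4 genes to 21 with DESeq2, 8 with no filter, 2 with no parity term and 0 summed, and to 1 with the replicate block without cows 10 and 17. Which of the 4 genes were called changed in no other comparison under the replicate block.

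Of 6 pairs, 0 were called over the 19 cows by Pearson's r. The count was 1 in C libraries only (CD3D with HCLS1) and 1 in Holsteins alone (HCLS1 with CR2). Within cows it was 0, also with RFI and parity removed, and 2 without cows 10 and 17 (CD3D with HCLS1 at 0.61 and CR2 with LYZ at 0.56). The causes were not tested.

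Signs turned only in values that were not called. Without cows 10 and 17, HCLS1 by diet in Jerseys was -0.0090 (-0.0070 with the replicate block), LYZ by diet was 0.0304 (0.0253 with the block) and CD3D by RFI and diet was 0.0759. By parity, CD3D was -0.17 in Holsteins alone, and CR2 was -0.15 and LYZ -0.40 in Jerseys alone; by period, LYZ was -0.0939 in Jerseys alone. Leaving out each cow in turn, the ranges that crossed 0 were -0.0166 to 0.0501 (HCLS1) and -0.19 to 0.0678 (LYZ) for diet in Holsteins, -0.12 to 0.0077 (CD3D) and -0.0197 to 0.0624 (HCLS1) for diet in Jerseys, -0.0429 to 0.42 (LYZ) for RFI by diet in Holsteins, -0.24 to 0.0466 (CD3D), -0.16 to 0.0302 (HCLS1) and -0.0016 to 0.24 (CR2) for RFI by diet in Jerseys, and -0.53 to 0.0084 (CR2) for RFI in Jerseys. Among the pairs, with RFI and parity removed CD3D with CR2 was 0.12, CD3D with LYZ -0.16, HCLS1 with LYZ -0.49 and CR2 with LYZ 0.44; in C libraries only, CD3D with CR2 was 0.0511 and CR2 with LYZ 0.0234; in HC libraries only, CR2 with LYZ was 0.0049; in Jerseys alone, CD3D with CR2 was 0.39, HCLS1 with CR2 0.10 and CR2 with LYZ 0.28.

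The relations of the 4 genes with marker lists, planned with 7 alternatives, were not run because the list genes could not be paired with identifiers. Depth limits CD3D most: at its lowest count of 36 read pairs, counting error alone is 16.7%. With 4 or 5 cows a group, the exact tests of RFI cannot go below 0.00794.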

Other observations

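Of the identifiers that could be paired with a symbol, 9 belong to genes of known immune function: NKG7, SLA, the lymphocyte GTPases GIMAP4 and GIMAP8, the class I histocompatibility genes BOLA-A and JSP.1, IFI6, SELP and OXER1, a receptor for eicosanoids. They were picked by their symbols after the pairing was known, and the study had listed them for their difference by RFI in these cows, so their values are a description. In high-RFI minus low-RFI Holsteins 7 of the 9 had a fitted log2 change above 0, with a median of 0.51, and SELP (-0.52) and OXER1 (-0.62) were below. In Jerseys 8 of the 9 were below 0, with a median of -0.30, among them GIMAP4 (-2.01, adjusted p of 0.0371 in edgeR) and GIMAP8 (-1.48, adjusted p of 0.0914), and SELP was above (0.15).

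NKG7 had 13.2 ± 2.05 CPM in high-RFI and 9.34 ± 1.30 CPM in low-RFI Holsteins, and 8.83 ± 1.75 and 9.62 ± 1.10 CPM in high- and low-RFI Jerseys (SD over 4 or 5 cows). SLA had 6.99 ± 0.602 and 5.34 ± 0.549 CPM in Holsteins and 5.19 ± 0.374 and 5.97 ± 1.16 CPM in Jerseys, in the same order. Both followed the order of the groups seen for HCLS1. Over the 19 cow means, the median r with the 9 genes was 0.40 for HCLS1, 0.45 for CD3D, 0.21 for LYZ and -0.12 for CR2, with 7, 7, 6 and 3 of the 9 above 0. With all genes the medians were -0.08, 0.07, 0.11 and 0.08, in the same order. The values over cow means carry the RFI difference for which the genes were listed. For the HC minus C difference within cows the order changed, with medians of 0.33, 0.18, 0.03 and 0.38, and 7, 8, 5 and 6 of the 9 above 0. JSP.1 varied most within a group (198 ± 256 CPM in high-RFI Holsteins).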
